A study of Mus musculus with 6 samples.

Results

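The 9 transcription factors described here are known from lacrimal gland development or from acinar and ductal cell identity: Pax6, Foxc1, Barx2, Sox9, Sox10, Runx1, Elf5, Ehf and Bhlha15. They were chosen by name, with earlier results of these data known, and 9 of 9 were found among the 50686 genes of the count table. All 9 passed the filter on low counts that left 13178 genes for testing. The samples were whole lacrimal glands, the exocrine glands that make the watery part of tears, from mice 13 weeks old with a C57BL/6 strain label. One group held 3 Eda-/- glands (titled Tabby) and the other 3 wild-type glands (titled Blacky), called biological replicates by the submitters, and the labels name no treatment. Eda encodes ectodysplasin A, a TNF-family ligand of hair, tooth and gland development whose receptor Edar signals to NF-kB. The sources used here do not state how the Eda-/- allele was made or whether the wild-type mice were littermates.

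The lacrimal gland begins as a bud of conjunctival epithelium that grows into neural crest mesenchyme and branches. In mice, Pax6 gives the eye-surface epithelium its competence, Fgf10 from the mesenchyme drives the bud, and Sox9 and then Sox10 act in the growing tip and the early acini. Later, ETS-family factors such as Elf5 and Ehf work in differentiated epithelium, and Bhlha15 (Mist1) scales up the secretory machinery of acinar cells. The data below are RNA levels in the adult gland and not in the bud.

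Library totals ran from 11894395 to 14480331 counts in Eda-/- and from 13670343 to 15700899 in wild-type glands. Eda itself (chromosome X, 99975606 to 100400762, GRCm38, plus strand) had 2, 0 and 0 counts in the Eda-/- libraries and 41, 48 and 42 in the wild type. Levels are CPM, counts relative to the library's size, scaled by the trimmed mean of M-values (TMM), which corrects for a few very abundant transcripts. The mucin-like gene Mucl2 alone took 7.71% to 12.6% of all counts in Eda-/- and 4.08% to 4.35% in wild-type glands. Differences are log2 fold changes of Eda-/- over wild type from edgeR's quasi-likelihood test, with Benjamini-Hochberg adjustment over all tested genes and a threshold of 0.05. By that test 1728 of 13178 genes passed, or 13.1%; 6.21% (819) were higher and 6.90% (909) lower in Eda-/- glands. Correcting for GC content and gene length gave 1482 higher and 827 lower genes, and with library totals as the scaling 246 were higher and 4365 lower.

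Of the 9 factors, 1 was higher in Eda-/- glands (Bhlha15) and 3 were lower (Runx1, Sox10 and Barx2). Over all tested genes 6.21% were higher and 6.90% lower. The factors that give the eye-surface epithelium and the bud their early identity, Pax6, Foxc1 and Sox9, did not pass, nor did the ETS factors Elf5 and Ehf. Runx1 was at 0.587-fold, Sox10 at 0.602-fold, Barx2 at 0.722-fold and Bhlha15 at 1.28-fold, and the intervals of Runx1, Sox10 and Barx2 overlapped one another. Runx1 and Bhlha15 passed in each of the 6 fits that left out 1 library, whereas Sox10 passed in 2 of these fits and Barx2 in 0. In Runx1, Sox10, Barx2, Elf5 and Bhlha15 the Eda-/- and wild-type libraries did not overlap, a separation seen in 32.1% of all tested genes. In bulk tissue, fewer cells of a type and less RNA per cell cannot be told apart.

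**Figure D1:**
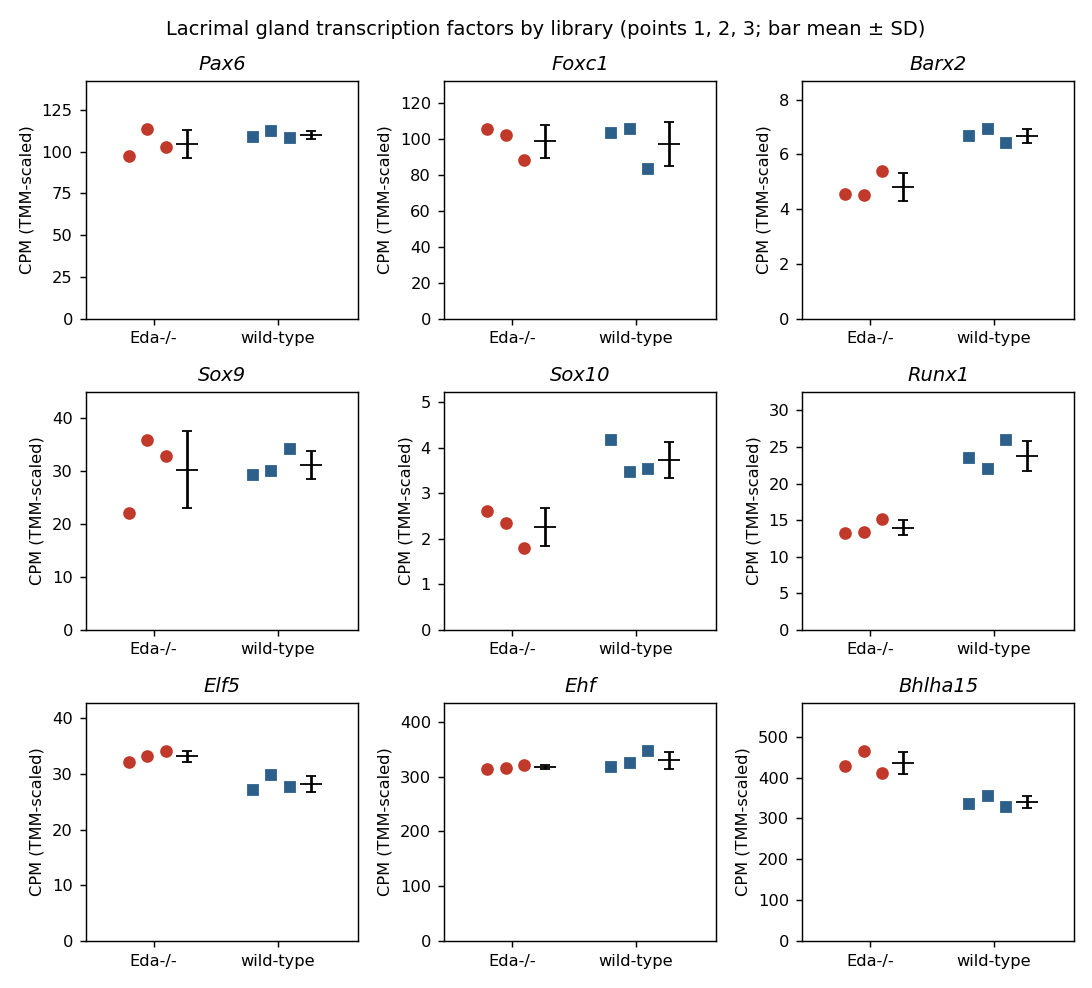
TMM-scaled CPM of each factor in the 3 Eda-/- libraries (left in each panel) and the 3 wild-type libraries (right), with points for libraries and bars for the mean and SD. The groups do not overlap in Barx2, Sox10, Runx1, Elf5 and Bhlha15, and they overlap in Pax6, Foxc1, Sox9 and Ehf.

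The 9 factors spanned a wide range of levels, which are compared here per kilobase of annotated exon because the genes differ in length. Bhlha15 was highest, at 124.5 CPM per kb in Eda-/- and 97.3 in wild-type glands, followed by Ehf at 56.9 and 59.2 and Foxc1 at 16.9 and 16.6. Pax6 stood at 8.95 in Eda-/- and 9.40 in wild-type glands, Sox9 at 7.31 and 7.54, and Elf5 at 5.65 and 4.80. The lowest were Barx2 at 2.44 in Eda-/- and 3.39 in wild-type glands, Runx1 at 1.16 and 1.98, and Sox10 at 0.738 and 1.22. The order was the same in both genotypes. In Eda-/- glands the ranges of Pax6 and Sox9, and of Sox9 and Elf5, overlapped, while in wild-type glands no neighbours in the order overlapped. Among all tested genes in wild-type glands, Bhlha15 lay at percentile 98.9 of level per kb, Ehf at 98.1, Runx1 at 48.7 and Sox10 at 34.8.

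Pax6 and Foxc1 stand for the early decision to make a gland at the eye surface. Pax6 (ENSMUSG00000027168.21, chromosome 2, 105668900 to 105697364, plus strand) encodes a paired-box and homeodomain factor required for eye formation. It had 97.4, 114 and 103 CPM in Eda-/- and 109, 113 and 108 CPM in wild-type glands, and the groups overlapped. The means were 104.7 ± 8.31 and 109.9 ± 2.36 CPM (SD, n = 3 each), with a log2 fold change of -0.07 (SE 0.073, 95% interval -0.23 to 0.09, edgeR adjusted p = 0.59). Foxc1 (ENSMUSG00000050295.3, chromosome 13, 31806633 to 31812476, plus strand) encodes a forkhead factor of the periocular mesenchyme and of gland epithelium. It had 106, 102 and 88.3 CPM in Eda-/- and 103, 106 and 83.1 CPM in wild-type glands, and the lowest library of each group lay apart from the other two. Its log2 fold change was 0.02 (SE 0.096, interval -0.19 to 0.23, adjusted p = 0.927). Under TMM scaling both intervals exclude a change of 0.25 in either direction, but with library totals, where the median of all genes lay at -0.28, Pax6 was at -0.35 (adjusted p = 0.00245) and Foxc1 at -0.26 (adjusted p = 0.0487), and both passed lower.

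Barx2, Sox9 and Sox10 act in the bud as it grows and branches. Barx2 (ENSMUSG00000032033.11, chromosome 9, 31846044 to 31913462, minus strand) encodes a homeobox factor tied to the branching of the gland and to its matrix proteases. Its counts were low, 52, 48 and 69 in Eda-/- against 107, 118 and 100 in wild-type libraries. In scaled units these were 4.54, 4.50 and 5.38 CPM in Eda-/- and 6.67, 6.94 and 6.42 CPM in wild-type glands, with every Eda-/- library below every wild-type library. Barx2 passed narrowly, at -0.47 (SE 0.15, interval -0.79 to -0.15, adjusted p = 0.0493). It did not pass without any 1 of the 6 libraries (adjusted p from 0.0631 to 0.154), nor in DESeq2 (0.194) or limma-voom (0.0553).

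Sox9 (ENSMUSG00000000567.5, chromosome 11, 112782224 to 112787760, plus strand) encodes a high-mobility-group factor that the lacrimal bud needs to grow out, and adult exocrine glands keep it in duct cells. It had 22.0, 35.9 and 32.8 CPM in Eda-/- and 29.2, 30.1 and 34.2 CPM in wild-type glands. Eda-/- library 1 was the lowest of the 6 and library 2 the highest, so the Eda-/- group enclosed the wild type. The log2 fold change was -0.04 (SE 0.17, interval -0.42 to 0.34, adjusted p = 0.898), and it was 0.14 without Eda-/- library 1. The width of that interval leaves changes of about this size in either direction undetectable with 3 libraries a group.

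Sox10 (ENSMUSG00000033006.9, chromosome 15, 79154908 to 79165240, minus strand) encodes the related factor that acts downstream of Sox9 in the gland, and it is also a gene of myoepithelial cells, Schwann cells and melanocytes. It had 30, 25 and 23 counts in Eda-/- and 67, 59 and 55 in wild-type libraries. As CPM these were 2.62, 2.34 and 1.79 in Eda-/- and 4.18, 3.47 and 3.53 in wild-type glands, again with no overlap. Sox10 was lower at 0.602-fold (log2 -0.73, SE 0.21, interval -1.19 to -0.28, adjusted p = 0.035). The call was lost without Eda-/- library 2 or 3 or wild-type library 1 or 2 (adjusted p up to 0.15) and in DESeq2 (0.122).

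Markers of the other cells that use Sox10 were read beside it. Of 10 tested myoepithelial markers 4 were lower (the contractile genes Mylk, -0.71, Myh11, -0.38, and Cnn1, -0.57, and the cadherin Cdh3, -1.17) and 0 higher, with a median of -0.42. By comparison, 6.90% of all tested genes were lower. The myoepithelial list summed to 160 to 181 CPM in Eda-/- and 197 to 253 CPM in wild-type glands. The count of lower markers was 1 without Eda-/- library 1 or 3 or wild-type library 2 or 3, and 2 without Eda-/- library 2, and without wild-type library 3 the median was -0.20. Cdh3 passed in 0 of the 6 fits without a library, and limma-voom called 1 marker lower. Of 7 tested Schwann cell markers 0 were called (1 lower without wild-type library 1), and the sums of 103 to 126 CPM in Eda-/- and 113 to 124 in wild-type glands overlapped. Most of that sum was Erbb3 (96.8 ± 10.4 and 97.8 ± 7.56 CPM), which epithelium also expresses. Without Erbb3, a reading added after the data were seen, the sums were 14.90 to 17.86 CPM in Eda-/- and 17.90 to 21.25 in wild-type glands. These ranges narrowly did not overlap. Of the 6 tested markers left, 5 lay below 0 and 1 above, and 0 were called. Of 6 listed pigment cell genes only Mitf was tested, at 11.8 CPM in Eda-/- and 10.3 CPM in wild-type glands. It did not pass (0.198, adjusted p = 0.283). The list summed to 11.35 to 13.03 CPM in Eda-/- and 10.04 to 11.62 CPM in wild-type glands, with overlap, and most of it was Mitf. The pigment cell genes Dct, Tyr, Tyrp1 and Mlana had at most 1 count in any library. The part of myoepithelial, Schwann and pigment cells in the lower Sox10 level was not tested. With library totals 7 myoepithelial and 4 Schwann cell markers were lower.

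**Figure D2:**
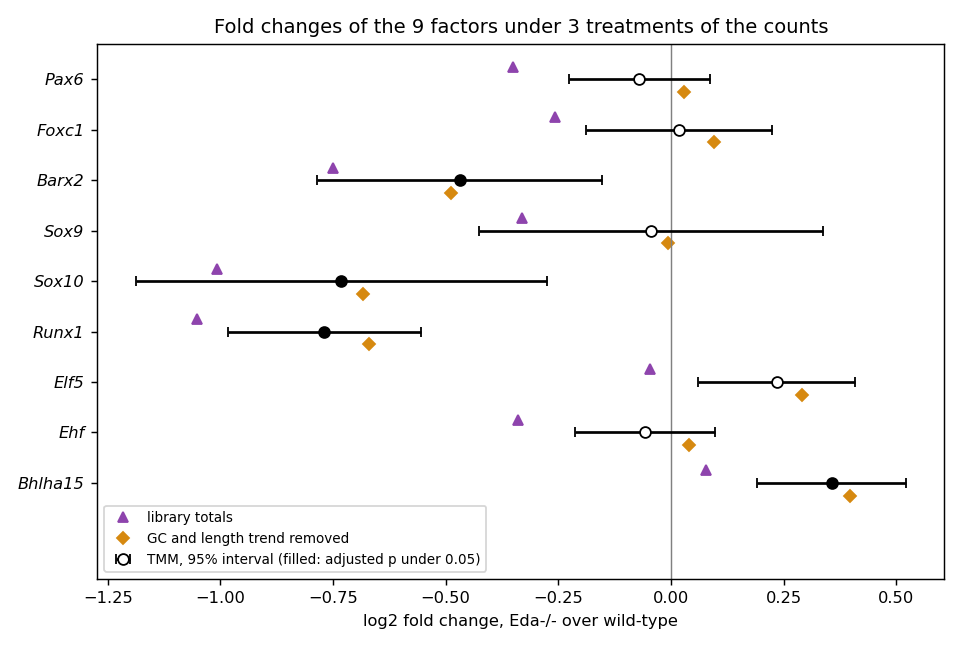
Log2 fold changes of the 9 factors, Eda-/- over wild type, with 95% intervals under TMM scaling (circles, filled where the adjusted p is under 0.05), and the same under library totals (triangles) and after removal of a GC and length trend (diamonds). Runx1, Sox10 and Barx2 lie below 0 under all 3, Bhlha15 lies above 0 but close to it under library totals, and Pax6, Foxc1, Elf5 and Ehf change sign with the treatment of the counts.

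Runx1, Elf5 and Ehf are factors of differentiating epithelium. Runx1 (ENSMUSG00000022952.16, chromosome 16, 92601466 to 92826149, minus strand) encodes a runt-domain factor, best known from blood cells, which also acts in the epithelium of hair follicles and exocrine glands. It had 152, 143 and 194 counts in Eda-/- and 377, 373 and 405 in wild-type libraries. These were 13.3, 13.4 and 15.1 CPM in Eda-/- and 23.5, 21.9 and 26.0 CPM in wild-type glands, so that the highest Eda-/- library stood well below the lowest wild-type library. Runx1 was lower by 0.77 on the log2 scale (13.9 ± 1.04 in Eda-/- and 23.8 ± 2.05 CPM in wild-type glands; SE 0.10, interval -0.98 to -0.56, adjusted p = 0.000107). It passed under every alternative run, and without 1 library at a time the adjusted p ran from 0.00033 to 0.00109.

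Runx1 has a distal and a proximal promoter, which in RefSeq (GRCm38.p6) start at bases far apart in the gene. The 250 bases upstream of the distal start hold 3 E-boxes and 0 RUNX or ETS matches and are not printed, and those upstream of the proximal start hold 1 ETS match and 0 RUNX matches or E-boxes. Shown are a RUNX pair just after the distal start, found in a further look at that stretch, because runt factors are known to bind their own genes, and the proximal promoter, because ETS factors are among the 9. The first line is the stretch from 24 to 47 bases after the distal start (chr16:92826028-92826051, minus strand), with the RUNX letters TGTGGT, read here on the opposite strand, in capitals. The second is the 250 bases upstream of the proximal start (chr16:92697330-92697579, minus strand), with the ETS letters CCGGAA in capitals.
Runx1 distal start: aaacaACCACAgaACCACAagttg
Runx1 proximal promoter: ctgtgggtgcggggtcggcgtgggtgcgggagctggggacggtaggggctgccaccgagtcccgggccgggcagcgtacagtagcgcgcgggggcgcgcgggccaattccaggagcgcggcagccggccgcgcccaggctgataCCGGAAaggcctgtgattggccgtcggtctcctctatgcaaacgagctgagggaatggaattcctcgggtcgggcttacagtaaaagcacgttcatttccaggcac
The first stretch holds 2 RUNX matches. Such a pair or more was found in 0.125% of the 50-base stretches after the starts of 32841 RefSeq promoters (41 of them), and at least 1 in 2.94%. In the 250 bases upstream of a start, both strands read, CCGGAA occurred in 12.03% of promoters, and in the proximal Runx1 promoter it lay 106 bases before the start. The stretch after the start was chosen in a further look at Runx1, so the share of promoters with a RUNX pair does not measure how unusual it is. These matches describe letters and not binding.

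Because Runx1 is also a blood cell gene, leukocyte markers were read beside it. Of 12 tested leukocyte and macrophage markers all 12 had negative log2 fold changes, with a median of -1.14, and 5 passed lower (Tyrobp, -1.71; Mrc1, -0.93; Csf1r, -1.01; Fcer1g, -1.26; and Spi1). By comparison, 6.90% of all tested genes were lower. The sum of the markers was 30.2 to 39.6 CPM in Eda-/- and 57.7, 65.8 and 109 CPM in wild-type libraries 1, 2 and 3. Wild-type library 3, which had the highest sum, also had the highest Runx1 level; without it Runx1 was at -0.69 (adjusted p = 0.000582). Without wild-type library 3 the median of the markers was -0.75. The count of lower markers was 3 without Eda-/- library 2 or 3, and 9 with library totals. The part of leukocytes in the lower Runx1 level was not tested. The partner subunit Cbfb, which runt factors need to bind DNA stably, averaged 17.5 ± 2.77 CPM in Eda-/- and 20.2 ± 0.0235 CPM in wild-type glands (-0.21, adjusted p = 0.221). The related gene Runx2 was at -0.08 (adjusted p = 0.812), and Runx3 had at most 5 counts in any library.

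Elf5 and Ehf are neighbouring ETS genes on chromosome 2 with restricted expression in epithelia, and Elf5 drives the secretory alveoli of the mouse mammary gland. Elf5 (ENSMUSG00000027186.14, 103411688 to 103450989, plus strand) had 32.2, 33.2 and 34.2 CPM in Eda-/- and 27.2, 29.8 and 27.7 CPM in wild-type glands. The groups did not overlap, and the log2 fold change was 0.23 (SE 0.082, interval 0.06 to 0.41), with an adjusted p of 0.0721 that missed the threshold. It passed at 0.29 after removal of the GC and length trend (adjusted p = 0.0205), and with library totals it was -0.05. Ehf (ENSMUSG00000012350.15, 103263433 to 103303278, minus strand) was the more abundant of the pair per kb, with 314, 316 and 322 CPM in Eda-/- and 318, 326 and 347 CPM in wild-type glands. Its log2 fold change of -0.06 had an interval of -0.21 to 0.10 (SE 0.073, adjusted p = 0.675).

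Bhlha15 (ENSMUSG00000052271.7, chromosome 5, 144190286 to 144194441, plus strand) encodes Mist1, a basic helix-loop-helix factor of cells that store and release much protein. It was the only one of the 9 that was higher, with 428, 465 and 412 CPM in Eda-/- and 336, 356 and 327 CPM in wild-type glands. All 3 Eda-/- libraries lay above all 3 wild-type libraries. The means were 435 ± 27.4 CPM in Eda-/- and 340 ± 14.7 CPM in wild-type glands (log2 fold change 0.36, SE 0.078, interval 0.19 to 0.52, adjusted p = 0.00694). The adjusted p stayed between 0.0128 and 0.0366 without 1 library at a time. With library totals as the scaling the log2 fold change was 0.08 (adjusted p = 0.433), where the median of all genes lay at -0.28.

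The Bhlha15 promoter is shown because helix-loop-helix factors bind E-boxes, and the capitals mark the E-box letters CANNTG in the 250 bases upstream of its RefSeq start (chr5:144190036-144190285, plus strand, GRCm38.p6).
Bhlha15 promoter: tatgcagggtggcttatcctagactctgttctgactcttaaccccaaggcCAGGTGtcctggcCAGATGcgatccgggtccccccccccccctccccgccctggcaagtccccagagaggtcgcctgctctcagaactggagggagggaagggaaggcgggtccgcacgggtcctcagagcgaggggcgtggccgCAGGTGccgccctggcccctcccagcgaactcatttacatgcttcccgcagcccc
The 3 matches begin 200, 187 and 55 bases before the start. At least 1 E-box was found in 66.2% of all promoters. The form CATATG, a subset of the E-box that Mist1 prefers, occurred in 3.47% of promoters and was not among these letters.

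Genes described as Mist1 targets in mouse pancreatic acinar or gastric zymogenic cells moved in both directions. Of 6 listed 4 were tested, with 2 higher, 1 lower and a median log2 fold change of 0.26, beside 13.1% called and a median of 0.00 over all tested genes. The gap junction gene Gjb1 was higher, at 52.0 ± 7.66 CPM in Eda-/- and 38.9 ± 2.33 CPM in wild-type glands (0.42, adjusted p = 0.0114), as was the coatomer subunit gene Copz2 (35.9 ± 3.81 and 27.0 ± 1.69 CPM; 0.41, adjusted p = 0.00915). Rab26, a small GTPase of secretory granules, was lower, at 9.71 ± 0.734 CPM in Eda-/- and 14.6 ± 0.174 CPM in wild-type glands (-0.60, adjusted p = 0.00172). These 3 passed without any 1 library, and with library totals the higher pair did not pass and the list's median was -0.020. Gjb1 lies on chromosome X (101376378 to 101385629, plus strand), the chromosome that also holds Eda (99975606 to 100400762). The bodies of these genes lie within 1 Mb of each other. The part of this shared region in the higher Gjb1 level was not tested. The granule GTPase gene Rab3d was at 0.11 (adjusted p = 0.349). Tmed6 had 0 counts in every library, where 3 counts correspond to 0.191 to 0.252 CPM, and Atp2c2 did not pass the filter.

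Acinar and ductal markers were read beside these levels. Of 11 tested acinar markers 2 were higher, Mucl2 (1.49) and the granule-fusion gene Vamp8 (0.25), 0 were lower and the median was 0.03. Over all tested genes 6.21% were higher and 6.90% lower. DESeq2 called 1 higher and 1 lower and limma-voom 2 higher and 1 lower, and with library totals 1 was higher and 5 lower, with a median of -0.25. Vamp8 did not pass without Eda-/- library 1 or 3 or wild-type library 1 or 2. The sum without Mucl2, a reading added after the data were seen, was 3528 to 4891 CPM in Eda-/- and 2598 to 3114 CPM in wild-type glands. Of these 10 markers 1 was called, 4 lay below 0 and 6 above, with a median of 0.03. The sum weighs abundant genes most and does not show a rise across the list. Of 9 tested ductal markers 1 was lower (the bicarbonate transporter gene Slc4a4, -0.68) and 0 higher, with sums of 438 to 514 CPM in Eda-/- and 503 to 565 CPM in wild-type glands. With library totals 7 ductal markers were lower. The share of acinar cells in the higher Bhlha15 level was not tested.

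**Figure D3:**
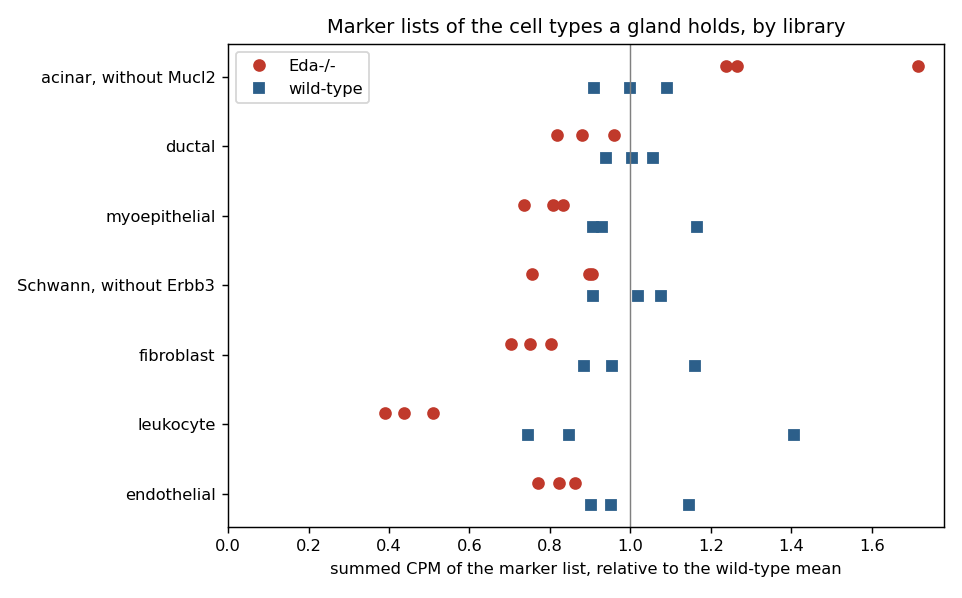
Summed TMM-scaled CPM of cell type marker lists in each library (a point each), divided by the wild-type mean, with Eda-/- libraries drawn above wild-type libraries in each row. The leukocyte sum is 30.2 to 39.6 CPM in Eda-/- and 57.7 to 109 CPM in wild-type glands. Myoepithelial, fibroblast, endothelial and, narrowly, Schwann cell sums are also lower in every Eda-/- library than in any wild-type library. Acinar sums are higher in every Eda-/- library, and only the ductal sums overlap.

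Ratios within a library do not depend on the scaling, and 3 were compared by an exact two-sided permutation test over the 6 libraries, whose smallest possible p is 0.1. The log2 ratio of Elf5 to Ehf was -3.29, -3.25 and -3.24 in Eda-/- and -3.55, -3.45 and -3.65 in wild-type glands, a difference of 0.29 without overlap (exact p = 0.1, adjusted over the 3 ratios 0.15). The log2 ratio of Bhlha15 to Sox9, an acinar factor over one kept in ducts, was 4.28, 3.70 and 3.65 in Eda-/- and 3.52, 3.57 and 3.26 in wild-type glands. The difference was 0.43 (exact p = 0.1, adjusted 0.15), and without Eda-/- library 1 it was 0.22 (exact p = 0.2). The log2 ratio of Sox9 to Sox10 was 3.07, 3.94 and 4.19 in Eda-/- and 2.81, 3.11 and 3.28 in wild-type glands. The groups overlapped in that ratio, and the difference was 0.67 (exact p = 0.3, adjusted 0.3). No ratio could reach 0.05 with 3 libraries a group.

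Among other transcription factors of glands and epithelia, 76 were listed and 54 tested. Of these 3 were higher and 4 lower, which is 13.0% beside 13.1% of all tested genes, and the median was 0.05. Among relatives and binding partners of the 9 factors, 0 of 19 tested genes were higher and 2 lower. Dach1, a transcriptional corepressor, had 9, 9 and 14 counts in Eda-/- and 39, 46 and 35 in wild-type libraries (-1.42, SE 0.28, adjusted p = 0.00298). Spdef, an ETS relative of Elf5 and Ehf known from mucous and goblet cells, averaged 2.76 ± 0.685 CPM in Eda-/- and 4.91 ± 0.604 CPM in wild-type glands (-0.81, adjusted p = 0.017). Spdef did not pass without Eda-/- library 1 or 2 or wild-type library 3 (adjusted p up to 0.0703). The helix-loop-helix partners of Bhlha15 showed small differences, with Tcf3 at 0.08, Tcf4 at 0.07 and Tcf12 at -0.14, none of which passed. The homeobox gene Six2 (0.42, adjusted p = 0.0793) did not pass either.

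Among factors of glandular and surface epithelia, 0 of 26 tested genes were higher and 2 lower, with a median of 0.05. The 2 called genes made up 7.69% of the list, near the 6.90% of all tested genes that were lower. Trp63, which keeps basal epithelial cells, averaged 3.87 ± 0.746 CPM in Eda-/- and 6.89 ± 0.238 CPM in wild-type glands (-0.83, SE 0.17, adjusted p = 0.00418). Foxq1, a forkhead gene that starts 250 kb before Foxc1, had 10, 14 and 16 counts in Eda-/- and 46, 32 and 38 in wild-type libraries (-1.06, adjusted p = 0.0226). Foxq1 did not pass without Eda-/- library 1 or 3 or wild-type library 1 (adjusted p up to 0.0895).

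Among factors of secretory cells, which belong to the same cellular programme as Bhlha15, 3 of 9 tested genes were higher and 0 lower, with a median of 0.12. Over all tested genes 6.21% were higher and 6.90% lower. Creb3l2, a membrane-bound activator of secretory pathway genes, averaged 68.7 ± 4.75 CPM in Eda-/- and 52.5 ± 2.07 CPM in wild-type glands (0.39, adjusted p = 0.00353). The endoplasmic reticulum stress sensor gene Atf6b was at 0.39 (22.5 ± 2.59 and 17.2 ± 1.2 CPM, adjusted p = 0.0216). Xbp1, the activator of the unfolded protein response and of secretory capacity, averaged 406 ± 40.4 CPM in Eda-/- and 335 ± 19.8 CPM in wild-type glands (0.28, adjusted p = 0.0462). Creb3l2 passed without any 1 library, while Atf6b and Xbp1 did not pass without Eda-/- library 1 or 3 or wild-type library 1 or 2. With library totals none of the 3 passed, Xbp1 lay at -0.0044 and the list's median at -0.16.

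**Figure D4:**
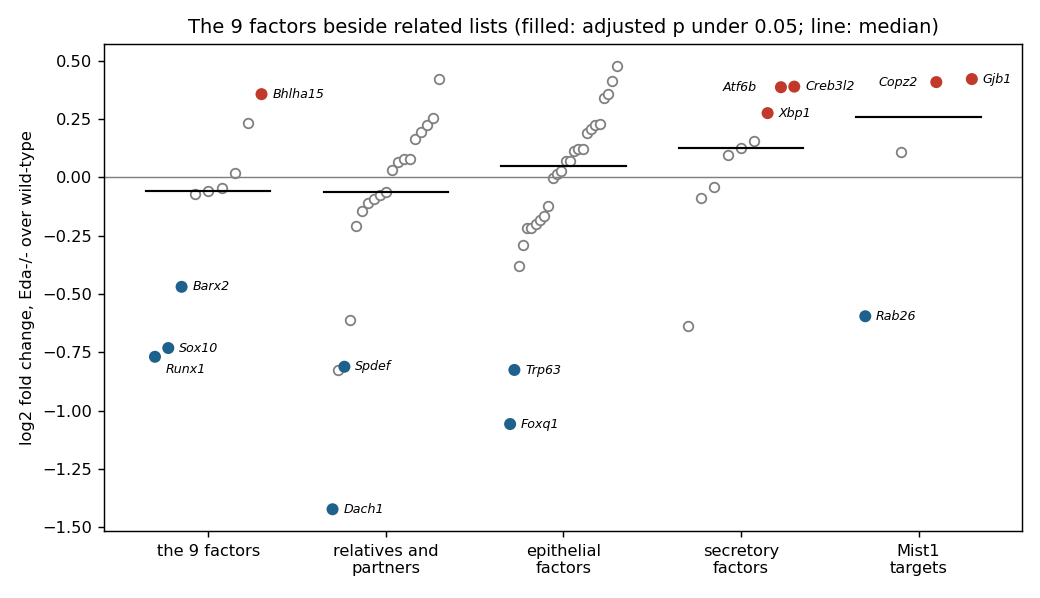
Log2 fold changes (Eda-/- over wild type) of the 9 factors and of the tested genes of 4 related lists, filled where the adjusted p is under 0.05, with lines at each list's median. Called genes of the secretory list lie above 0 and called genes of the relatives and epithelial lists lie below 0.

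Signals and matrix genes tied to bud growth were read as the setting in which Barx2, Sox9 and Sox10 act during development. Of 18 listed 15 were tested, with 1 higher, 2 lower and a median of -0.19. The matrix protease gene Mmp2, linked to Barx2 in the branching gland, averaged 5.41 ± 0.624 CPM in Eda-/- and 9.75 ± 1.24 CPM in wild-type glands (-0.84, SE 0.15, adjusted p = 0.00145). Mmp2 is a gene of fibroblasts too, and of 11 tested fibroblast markers 4 were lower (Dcn, -0.42; Pdgfra, -0.52; Col1a2, -0.62; Vim, -0.52) and 0 higher, with sums of 183 to 208 CPM in Eda-/- and 230 to 302 CPM in wild-type glands. Only 2 of these markers passed without Eda-/- library 2 or 3. Over all tested genes 6.21% were higher and 6.90% lower. The part of fibroblasts in the lower Mmp2 and Barx2 levels was not tested. The growth factor gene Fgf10 had 11, 14 and 22 counts in Eda-/- and 38, 28 and 30 in wild-type libraries, and did not pass (-0.56, adjusted p = 0.23). Its receptor gene Fgfr2 was at -0.24 (adjusted p = 0.265). Fgfr1 passed lower at -0.38 (adjusted p = 0.0488) and in only 1 of the 6 fits without a library. Ugdh, which makes the sugar donor for heparan sulfate, was higher at 0.71 (9.44 ± 2.05 and 5.73 ± 0.711 CPM, adjusted p = 0.0112), but not without Eda-/- library 1 (0.0604).

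The genomic neighbourhood of each factor was read as all tested genes within 1 Mb, to be set beside the 13.1% called over all genes. Whether the groups differ in inherited segments around these genes was not tested. Around Sox9 4 of 8 tested neighbours passed, 1 higher and 3 lower, although Sox9 itself did not. BC006965, a noncoding gene on the minus strand (chromosome 11, 112663927 to 112781976) that starts 248 bases from Sox9 and points away from it, had 105, 90 and 124 counts in Eda-/- and 248, 262 and 236 in wild-type libraries. It averaged 9.09 ± 0.621 CPM in Eda-/- and 15.3 ± 0.168 CPM in wild-type glands, without overlap (-0.75, SE 0.11, adjusted p = 0.000216). Another noncoding gene, on the far side of Sox9, 2610035D17Rik, had 4, 6 and 4 counts in Eda-/- and 24, 36 and 38 in wild-type libraries (-2.30, adjusted p = 0.000691). Both noncoding genes were chosen after their values were seen, and both passed under all 17 alternatives. Farther away, Sdk2, a synaptic adhesion gene, was lower at 1.67 ± 0.377 CPM in Eda-/- and 10.5 ± 1.62 CPM in wild-type glands (-2.65, adjusted p = 1.66e-07), and Cog1, a subunit of a Golgi tethering complex, was higher (0.97, adjusted p = 1.11e-05).

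Around Foxc1 2 of 5 tested neighbours passed, Foxq1 lower and Gmds higher (0.42, adjusted p = 0.0478), and Gmds did not pass without Eda-/- library 1 or 3 or wild-type library 1 or 2. Around Bhlha15 4 of 28 passed, among them Baiap2l1, an actin-regulating gene of epithelial cells, at 64.0 ± 5.92 CPM in Eda-/- and 26.1 ± 2.91 CPM in wild-type glands (1.29, adjusted p = 1.65e-07). Around Runx1 only Itsn1 passed of 16 neighbours (-0.78, adjusted p = 0.043), with overlapping groups and in 1 of the 6 fits without a library. Elf5 and Ehf share their surroundings, where 2 of 15 neighbours of each were higher and 0 lower, the nearer being Abtb2 (0.58, adjusted p = 0.00791, not passing without Eda-/- library 3). Around Sox10 10 of 43 passed, 3 higher and 7 lower, with the Polycomb gene Cbx7 (-1.26) and the nuclear envelope gene Sun2 (-0.76) having the smallest p. Around Pax6 4 of 12 and around Barx2 1 of 9 passed, among them Depdc7 (2.01) and Dcdc5 (-2.17) near Pax6 and Aplp2 (-0.42) near Barx2.

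**Figure D5:**
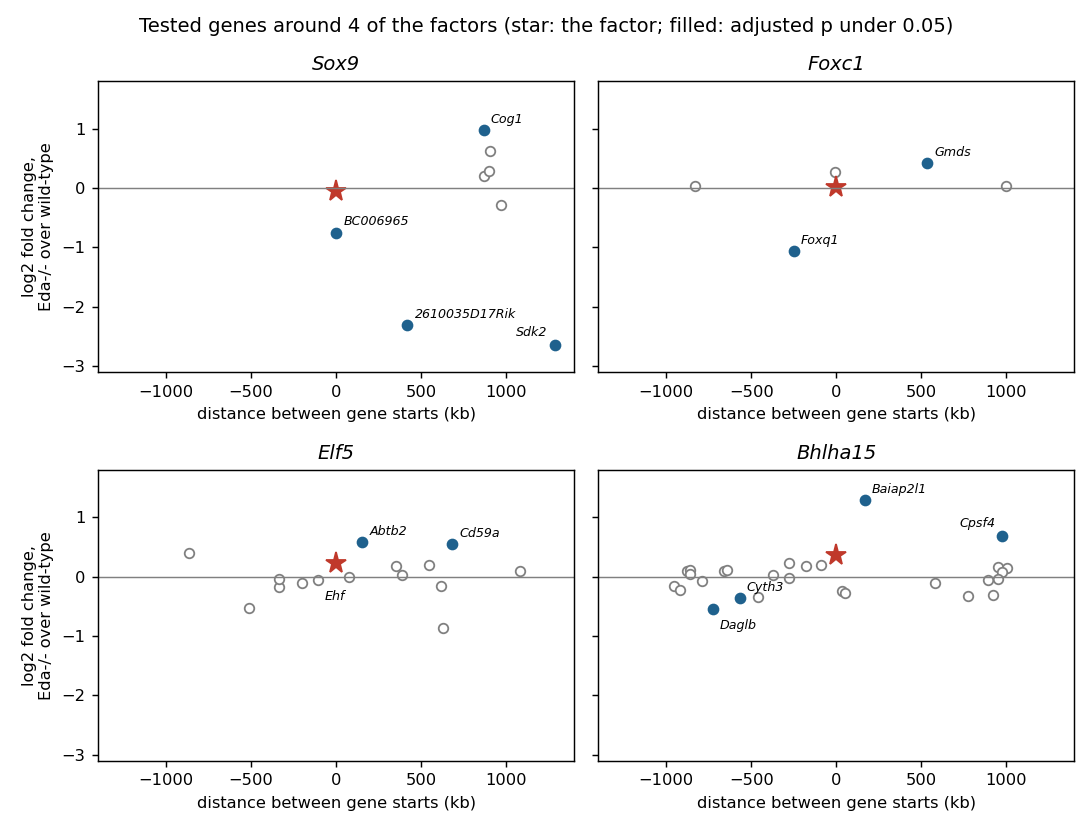
Log2 fold changes (Eda-/- over wild type) of tested genes around Sox9, Foxc1, Elf5 and Bhlha15, against the distance between gene starts in kb, with a star for the factor and filled points for an adjusted p under 0.05. Called genes beside Sox9 lie both above and below 0 while Sox9 lies at -0.04.

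For each factor, the related transcription factor whose log2 CPM followed it most closely over the 6 libraries was picked from the 54 tested, as a description of libraries that share their genotypes and scaling. Dach1 was picked for Barx2 (Pearson r 0.99), Runx1 (0.96) and Sox10 (0.80), the 3 factors that were lower. Creb3l2 was picked for Elf5 (0.97) and Irx3 for Bhlha15 (0.93). For the factors whose groups overlapped the picks were Tfap2a for Pax6 (0.97), Irx5 for Foxc1 (0.92), Nfia for Sox9 (0.92) and Ddit3 for Ehf (0.97).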

How the data were processed

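Total RNA of 6 lacrimal glands was sequenced from directional libraries after removal of ribosomal RNA, per the labels' protocols. The values deposited are raw counts, with a row per gene and a column per library, not pooled. The submitters' processing notes name STAR, featureCounts, Trimmomatic, bcl2fastq and DESeq2, with build GRCm38.p5. The strand setting, annotation and versions are not given in the sources read, so overlapping antisense genes are uncertain. Genes overlapping Pax6, Barx2 and Runx1 held at most 33 counts over all libraries. Symbols and coordinates came from GENCODE M21 (GRCm38): 50462 identifiers matched and 224 did not. All 6 columns of counts were matched to samples.

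The test was edgeR 4.0.16 under R 4.3.3 on those counts (filterByExpr with a minimum count of 10, TMM, genotype alone, robust quasi-likelihood fit, two-sided, Benjamini-Hochberg threshold 0.05). The common biological coefficient of variation was 0.103, and no 2 replicates agreed within sampling noise (chi-square per degree of freedom 9.08 to 28.9). Means are given with SD over 3 libraries. Limits from 3 counts cover counting error only, since reads carry no molecular identifiers. Scripts were tested on simulated data. Promoters came from RefSeq (GRCm38.p6), which matched 5 of the 9 factors. Alternatives were DESeq2 1.42.0, limma-voom (limma 3.58.1), other scalings and filters, a fit that was not robust, a replicate block, removal of a GC and length trend, and each library left out.

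The 9 factors and the lists were chosen with earlier results of these data known. Named genes were all 9 factors, the passing genes of each list with the smallest p (up to 4; where none passed, up to 2 by level), every tested Mist1 target, up to 2 passing neighbours of each factor within 1 Mb by p, and the pattern most like each factor. Chosen after their values were seen were BC006965, 2610035D17Rik, Cbfb, Runx2, Runx3, Tcf3, Tcf4, Tcf12, Six2, Fgf10, Fgfr2, Dct, Tyr, Tyrp1 and Mlana. Also chosen in this way were Spi1, Etv4, Eya1, Sox8, Smgc, Dcpp3 and the untested genes of secretory cells and of the Mist1 target list. Some genes covered by the rule are left out of the text.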

Additional observations from a re-analysis of the deposited data

How the results depend on the processing

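The counts of higher and lower factors (1 and 3) were kept within 1.5 times by most of the 11 alternatives. A fall from 3 to 2 counts as kept here. Limma-voom, no filter on low counts, the fit that was not robust and the replicate block each gave 2 lower. Barx2 did not pass in these (adjusted p = 0.0553, 0.0811, 0.0523 and 0.0717, in that order). With DESeq2 1 factor was lower. With library totals 0 were higher and 6 lower, Pax6 (-0.35), Foxc1 (-0.26) and Ehf (-0.34) now passing. After removal of the GC and length trend 2 were higher, Elf5 (0.29) joining. Leaving out 1 library at a time gave 1 higher (1 to 1) and 1 to 2 lower. Over all tested genes (819 higher, 909 lower), library totals gave 246 and 4365 and the GC and length trend 1482 higher; without 1 library there were 561 to 677 higher and 599 to 834 lower, the lowest without Eda-/- library 3. Of the related transcription factors (3 higher, 4 lower), library totals gave 0 and 18, no filter on low counts 5 higher and the GC and length trend 7 higher; without 1 library 1 to 3 were higher and 2 to 4 lower.

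Some signs turned. The median gene lay at -0.28 with library totals, 0.07 with the GC and length trend removed and -0.10 with no filter. With library totals Foxc1 was at -0.26, Elf5 at -0.046, Xbp1 at -0.0044, Rab3d at -0.17, Vamp8 at -0.031, Mitf at -0.085, Irx5 at -0.16 and Irx3 at -0.049, and with the upper quartile Foxc1 was at -0.014. With the GC and length trend removed Pax6 was at 0.030, Ehf at 0.040, Erbb3 at 0.048 and Nfia at 0.10. Without 1 library Foxc1 ran from -0.074 to 0.097, Sox9 from -0.18 to 0.14, Erbb3 from -0.098 to 0.059 and Nfia from -0.058 to 0.082. The ratio differences ran from 0.44 to 0.9996 for Sox9 over Sox10, from 0.24 to 0.34 for Elf5 over Ehf and from 0.22 to 0.54 for Bhlha15 over Sox9, and a pseudocount of 0.5 gave 0.65, 0.29 and 0.43. Where no value above shows it, the cause was not tested.

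Same-numbered libraries did not deviate together (correlations -0.04, 0.02 and -0.09), so no pairing by number was seen. With 3 libraries a group this check cannot exclude a pairing. With the replicate block 1 factor was higher and 2 lower (Barx2 adjusted p = 0.0717), 712 genes were higher and 896 lower in all, and of related factors 4 were higher and 5 lower. At the depth of Sox10 (23 to 67 counts a library) and Barx2 (48 to 118) counting error is a large part of the spread.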

Other observations

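Some factors of other exocrine or budding programmes were at or near the floor in both genotypes. Ptf1a, which defines pancreatic acinar cells together with Rbpjl, had 0 counts in all 6 libraries, where 3 counts correspond to 0.191 to 0.252 CPM. Rbpjl had 1, 2 and 2 counts in Eda-/- and 0, 1 and 0 in wild-type libraries, and Nr5a2, another pancreatic acinar factor, 9, 3 and 8 in Eda-/- and 3, 2 and 11 in wild-type libraries. Etv4, a target of FGF signalling in branching buds, had 1, 0 and 1 counts in Eda-/- and 4, 3 and 5 in wild-type libraries, and Eya1, a transcriptional coactivator of organ buds, 1, 0 and 0 in Eda-/- and 4, 7 and 4 in wild-type libraries. The group E relative of Sox9 and Sox10, Sox8, had 1, 1 and 0 counts in Eda-/- and 1, 2 and 1 in wild-type libraries. None of these was tested.

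The lists of endothelial, lymphoid, adipocyte, skeletal muscle and salivary markers were read as well, beside 13.1% called over all tested genes. Of 9 tested endothelial markers Vwf (-1.01) and Flt1 (-0.51) were lower and Plvap (0.53) higher, and Plvap did not pass without any 1 library. Of the 2 tested adipocyte markers Fabp4 was higher (1.98, 36, 34 and 30 counts in Eda-/- and 12, 7 and 16 in wild-type libraries). The plasma cell genes Igha (1.65, adjusted p = 0.288) and Jchain (1.496, adjusted p = 0.328) did not pass and varied widely among wild-type libraries; both passed higher in limma-voom, and Igha did in the edgeR fit that was not robust. No skeletal muscle marker passed the filter. Of the salivary markers only Amy1 did (0.51, adjusted p = 0.406), and Smgc and Dcpp3 had 0 counts in every library.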
